A study of Mus musculus with 16 samples.

Results

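Colony-stimulating factors (CSFs) and their receptors were described through the open chromatin around 8 genes: the ligands Csf1, Il34, Csf2 and Csf3 and the receptor genes Csf1r, Csf2ra, Csf2rb and Csf3r. ATAC-seq peaks, which mark open DNA where the Tn5 transposase can insert sequencing adaptors, were merged over 4 deposited lists wherever they overlapped. Regions were then taken when their midpoint lay no more than 100 kb from the start of transcription (TSS) of one of the 8 genes, defined as the 5′ end of the GENCODE gene record. This gave 70 of 37648 regions. The cells were C57BL/6J mouse macrophages grown from bone marrow, differentiated in medium with 20% L-cell conditioned medium, a usual source of CSF-1, and kept in 4% of it during treatment, so that every group was exposed to 1 of the 4 ligands. The groups were DMSO vehicle for 3 h (Veh), 500 nM of T0901317, an agonist of the liver X receptor (LXR), for the same time (T0), and the same 2 treatments followed by 10 ng/mL of lipopolysaccharide, a ligand of TLR4, for another 2 h (LPS and T0-LPS). Each group had 4 libraries of 50000 cells, harvested from day 8 of culture, and comparisons with and without LPS also differed by those 2 h. Peaks had been called on the 4 libraries of a group together and limited to regions with enhancer histone marks, so there was 1 list per group. No difference below therefore has a replicate check or a test, the depth per library is unknown, and Wilson intervals cover counting error only.

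CSF-1 and interleukin-34 both bind the tyrosine kinase receptor CSF1R, on which the survival and differentiation of macrophages depend. CSF-2 (GM-CSF) binds a receptor made of a specific alpha chain, encoded by Csf2ra, and a beta chain, encoded by Csf2rb, that is shared with the interleukin-3 and interleukin-5 receptors and signals through JAK2 and STAT5. The mouse carries a close paralog of the beta chain gene beside it, Csf2rb2, whose product works with interleukin-3. CSF-3 (G-CSF) acts through CSF3R and drives neutrophil production, and activated macrophages are known to secrete both CSF-2 and CSF-3.

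Sequences of 6 regions are printed, since these regions carry the differences with LPS described below: 2 paralogous introns with peaks in the LPS and T0-LPS lists only, 2 regions downstream of Csf2, and 1 region upstream and 1 downstream of Csf3r. Each is the central 200 bases of its region in GRCm38, read 5′ to 3′. The strand is plus except for the Csf2rb2 intron, which is shown on the minus strand so that both introns read in the direction of their genes. Capitals mark matches to consensus motifs on either strand, with NF-kB and DR4 searched by name and AP-1 as TGANTCA, PU.1 as GAGGAA, C/EBP as TTGCNNAA, the STAT motif GAS as TTCNNNGAA and the nuclear receptor half-site as AGGTCA. A match describes the letters and is not evidence of binding.
Csf2rb intron, chr15:78334506-78334705: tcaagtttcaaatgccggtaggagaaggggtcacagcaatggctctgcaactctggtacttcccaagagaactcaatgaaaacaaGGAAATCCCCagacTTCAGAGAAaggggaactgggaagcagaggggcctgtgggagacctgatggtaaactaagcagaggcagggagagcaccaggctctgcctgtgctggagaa
Csf2rb2 intron, chr15:78298701-78298900, minus strand: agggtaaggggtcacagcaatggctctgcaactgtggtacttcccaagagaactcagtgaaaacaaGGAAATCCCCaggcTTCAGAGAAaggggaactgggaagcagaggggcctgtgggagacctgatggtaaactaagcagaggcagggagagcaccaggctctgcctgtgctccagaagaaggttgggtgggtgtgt
Csf2 downstream region in an intron of 4933405E24Rik, chr11:54181902-54182101: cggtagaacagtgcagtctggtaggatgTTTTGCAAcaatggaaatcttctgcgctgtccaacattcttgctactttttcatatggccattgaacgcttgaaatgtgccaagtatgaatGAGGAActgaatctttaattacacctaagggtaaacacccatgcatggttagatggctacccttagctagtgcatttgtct
Csf2 downstream intergenic region, chr11:54214668-54214867: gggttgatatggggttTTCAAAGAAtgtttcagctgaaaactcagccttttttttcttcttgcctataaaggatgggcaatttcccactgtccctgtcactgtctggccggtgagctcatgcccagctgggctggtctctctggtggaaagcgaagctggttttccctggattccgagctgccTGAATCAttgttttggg
Csf3r upstream intergenic region, chr4:126004131-126004330: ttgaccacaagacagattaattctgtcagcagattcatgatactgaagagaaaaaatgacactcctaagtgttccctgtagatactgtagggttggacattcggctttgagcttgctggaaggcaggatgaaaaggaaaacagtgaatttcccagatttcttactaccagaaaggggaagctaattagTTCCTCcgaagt
Csf3r downstream region in an intron of Stk40, chr4:126110610-126110809: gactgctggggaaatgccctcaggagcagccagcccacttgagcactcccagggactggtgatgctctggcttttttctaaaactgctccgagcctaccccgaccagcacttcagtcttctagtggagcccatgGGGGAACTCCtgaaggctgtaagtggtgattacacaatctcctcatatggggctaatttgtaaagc
Both beta chain introns held the same GGAAATCCCC match to NF-kB and the same TTCAGAGAA match to GAS, in the same order. The Stk40 intron held another NF-kB match. The intergenic Csf2 region held AP-1 and GAS matches, the 4933405E24Rik intron held C/EBP and PU.1 matches, and the region upstream of Csf3r held a PU.1 match.

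Open regions were found near all 8 genes, which lie on chromosomes 3 (Csf1), 8 (Il34), 11 (Csf2 and Csf3), 18 (Csf1r), 19 (Csf2ra), 15 (Csf2rb) and 4 (Csf3r), but their number differed. Csf3 had 14 regions, Csf2rb 13, Csf1r 12, Csf3r 10, Csf2ra 8, Csf1 and Csf2 5 each and Il34 3, beside a median of 5 over 21911 protein-coding genes. Of the 70 regions, 53 (75.7%) held a peak in all 4 lists, against 70.2% of all regions. The Veh list had peaks at 63 of the member regions, the T0 list at 57 and the lists with LPS at 64 each. Each peak was ranked by the percentile of its score within its own list, since the score grows with depth. The median percentile of the member regions that had a peak was 43.1 with vehicle, 45.1 with T0, 56.9 with LPS and 56.7 with both. The medians of all regions were 50.4, 51.0, 50.7 and 50.9 in that order. Each of these medians was taken over a different set of regions. Over the 58 member regions with a peak in both Veh and LPS, the median difference was 0.2 points, with 30 higher and 28 lower in LPS. By position, 30 lay in introns, 29 between genes and 11 over untranslated regions. Inside the member gene itself lay 7 of the 12 Csf1r regions, 2 each for Csf2ra and Csf2rb and 1 each for Csf1 and Csf3r. Csf2, Csf3 and Il34 had none, and many other regions lay within neighbouring genes such as Thra, Med24 and Ahcyl1.

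**Figure D1:**
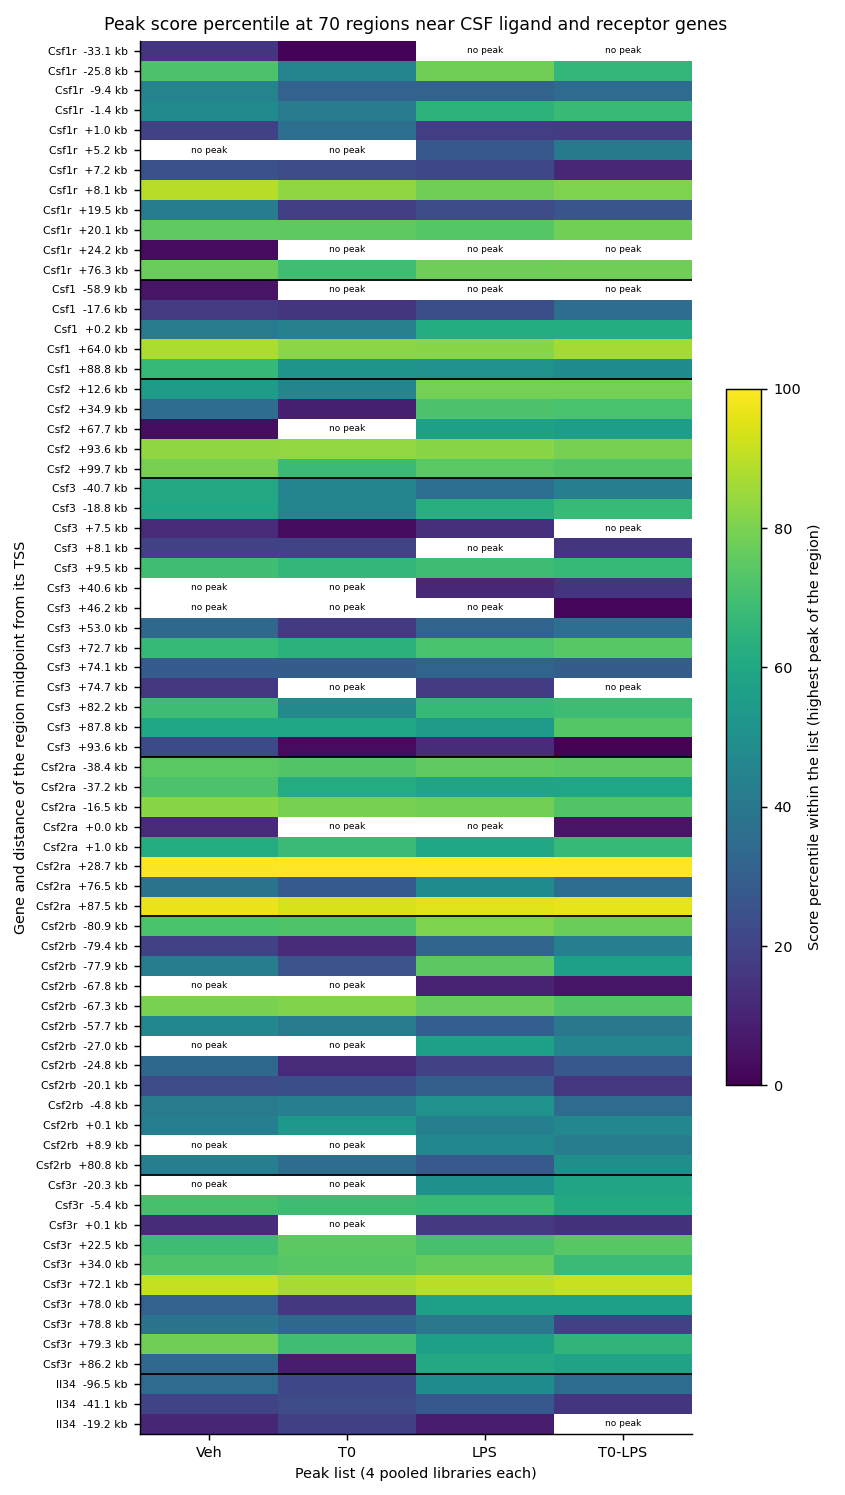
Score percentile of the highest peak of each of the 70 regions (rows, by gene and distance in kb of the midpoint from the TSS, negative upstream) in the 4 lists (columns), with colour from 0 to 100 and white cells where a list held no peak. The Csf2 regions at 12.6, 34.9 and 67.7 kb were brighter in LPS and T0-LPS, and 6 rows were white in both Veh and T0 and filled in both other lists.

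One set of regions was present with LPS, with or without T0, and in neither list without it. This pattern was not among the planned comparisons between lists. Of the 70 member regions, 6 (8.57%, Wilson 95% interval 3.99 to 17.5%) showed this pattern, against 2.69% of all regions. Of the 6, 3 lay near Csf2rb and 1 each near Csf1r, Csf3r and Csf3, the last over an untranslated region of another gene, Thra. Of the Csf2rb regions, 2 share sequence and are not independent. Counted as 1, they left 5 of 69 (7.25%, 3.13 to 15.9%). The numbers in the peak names were taken to count the peaks as called. Where a list lacks a peak, a gap in this numbering between the flanking peaks then leaves room for a peak that the enhancer filter removed. No such room existed in Veh or T0 for the Csf1r region and the 3 Csf2rb regions, whereas the Csf3r region had 3 missing numbers in Veh and 1 in T0, and the Csf3 region 1 in each.

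LPS was compared with Veh to describe the response to stimulation, and the largest rises among regions in all 4 lists lay near Csf2, Csf2rb and Csf3r and the largest falls near Csf3, Csf3r and Csf1r. Single genes held both: Csf2rb regions 57723 bp upstream, 80837 bp downstream and 24776 bp upstream differed by -17.0, -15.3 and -13.7 points, and a region 1419 bp upstream of Csf1r by 17.3. Of 64 member regions with an LPS peak, 6 (9.38%, 4.37 to 19.0%) lacked a Veh peak, called LPS-opened here, against 6.14% of all regions. They were the same 6 regions as those present in LPS and T0-LPS only. Counted in this way, their interval held the share of all regions. The converse, LPS-closed, was met by 5 of 63 (7.94%, 3.44 to 17.3%), against 13.0%, and these regions near Csf1r, Csf1, Csf3 and Csf2ra were weak, at percentiles up to 19.3 in Veh. Among the 58 member regions present in both lists, 11 (19.0%) rose by more than 10 percentile points against 11.4% of all shared regions, and 10 (17.2%) fell by more than 10 points against 25.2%. The median difference was 0.2 points for the members and -2.0 for all shared regions.

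Among the ligands, the shift lay at Csf2. The region 34900 bp downstream of its TSS scored 264 with vehicle, 110 with T0, 519 with LPS and 463 with both, at percentiles 35.7, 8.73, 72.2 and 71.2. The 2 lists with LPS were thus far above the other 2, and the difference of 36.5 points between LPS and Veh was the largest rise among member regions in all 4 lists. The region at 67666 bp, in an intron of 4933405E24Rik, scored 91 in Veh, 375 in LPS and 333 in T0-LPS and was missing from T0 with no room there. Its percentile went from 3.68 in Veh to 57.2 in LPS, a difference of 53.5 points, and with scores under 100 set aside it counted as present in the LPS and T0-LPS lists only. At 12559 bp, the region nearest Csf2, the scores were 417, 277, 607 and 555 in the order Veh, T0, LPS and T0-LPS, at percentiles 55.1, 45.7, 79.1 and 79.1. The Csf2 regions at 93573 and 99682 bp did not share this order, with their highest scores, 776 and 705, in Veh. No list held a peak at the Csf2 TSS itself (chromosome 11, position 54249667), which lay in a gap of about 200 kb between peaks, 200467 bp long in Veh, with 1 missing peak number in Veh and LPS and 0 in T0 and T0-LPS.

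The other ligand genes moved less or lacked strong regions. At the Csf1 TSS, a region over its untranslated region scored 306 with vehicle, 265 with T0, 414 with LPS and 380 with both. The percentiles of 41.5, 43.7, 61.8 and 62.0 separated the lists with LPS from those without, by 20.3 points between LPS and Veh. Near Csf3, an intergenic region 40660 bp upstream went the other way, from 467 in Veh to 235 in LPS (percentiles 60.3 and 36.4), the largest fall among member regions in all 4 lists. No peak lay at the Csf3 TSS in any list, between flanking peaks 25827 bp apart in Veh, with 0 missing numbers in all 4 lists. The nearest region to Csf3, 7468 bp downstream in an intron of the Mediator gene Med24, was weak, at 132 in Veh, 85 in T0 and 127 in LPS, and missing from T0-LPS. Il34 had no peak within 10 kb of its TSS, and its nearest region, 19162 bp upstream in the splicing factor gene Sf3b3, scored 127 in Veh, 148 in T0 and 104 in LPS and was missing from T0-LPS.

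Among the receptor genes, LPS-opened regions lay within Csf1r and within both beta chain genes. The Csf2rb intron region (chr15:78334458-78334753), 8853 bp from the TSS, scored 296 in LPS and 246 in T0-LPS, at percentiles 46.5 and 42.5. The Csf2rb2 intron region (chr15:78298636-78298965), 6921 bp from the Csf2rb2 TSS and 26952 bp upstream of Csf2rb, scored 374 in LPS and 266 in T0-LPS, at percentiles 57.1 and 46.0. Neither had a peak or room for one in Veh or T0. In the score deciles that these regions held in LPS, 3.17% and 2.05% of all regions lacked a Veh peak, so such mid-ranked regions were seldom LPS-opened. Another Csf2rb region with the pattern, 67833 bp upstream in an intron of the NADPH oxidase gene Ncf4, was weak, at 113 and 91. A further Ncf4 intron region, 77869 bp upstream of Csf2rb, was in all 4 lists and scored 311 with vehicle, 174 with T0, 551 with LPS and 336 with both. Its percentile of 74.9 in LPS stood 32.6 points above Veh.

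Csf1r, on chromosome 18, had its gene record start at 61100598, 4974 bp upstream of the first of its 2 basic transcripts, so distances from the gene record and from those transcripts differ. The region 5164 bp into the gene record (chr18:61105488-61106036) covered the start sites of both transcripts, at 61105572 and 61105852. It scored 187 in LPS and 236 in T0-LPS, at percentiles 27.3 and 40.5, and had no peak and no room in Veh or T0. The strongest Csf1r region in Veh lay 8092 bp from the gene record start, in a Csf1r intron, and scored 901 with vehicle, 639 with T0, 596 with LPS and 577 with both. Its percentile of 89.2 in Veh was above the 83.4, 78.3 and 80.8 of the other lists. The transcript start sites and this intron thus differed in opposite directions between Veh and LPS. A further Csf1r intron region at 19491 bp scored 308 with vehicle, 146 with T0, 168 with LPS and 168 with both, and its percentile fell by 18.4 points between Veh and LPS.

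At Csf3r, a region 20320 bp upstream (chr4:126003953-126004507) scored 319 in LPS and 352 in T0-LPS, at percentiles 50.0 and 58.5, and held no peak in Veh or T0, where the numbering left room. Downstream, the Stk40 intron region at 86159 bp scored 256 with vehicle, 104 with T0, 404 with LPS and 345 with both, at percentiles 34.3, 7.53, 60.5 and 57.7. An intergenic region at 77975 bp had the same order, with 237, 137, 375 and 340. Both were lowest in T0 and higher in LPS than in Veh, by 26.2 and 25.8 points. A neighbouring region at 79318 bp went the other way, from 688 in Veh to 371 in LPS, and fell by 21.5 points. At the Csf3r TSS the region was weak, with scores of 135 in Veh, 140 in LPS and 125 in T0-LPS and no peak or room in T0.

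**Figure D2:**
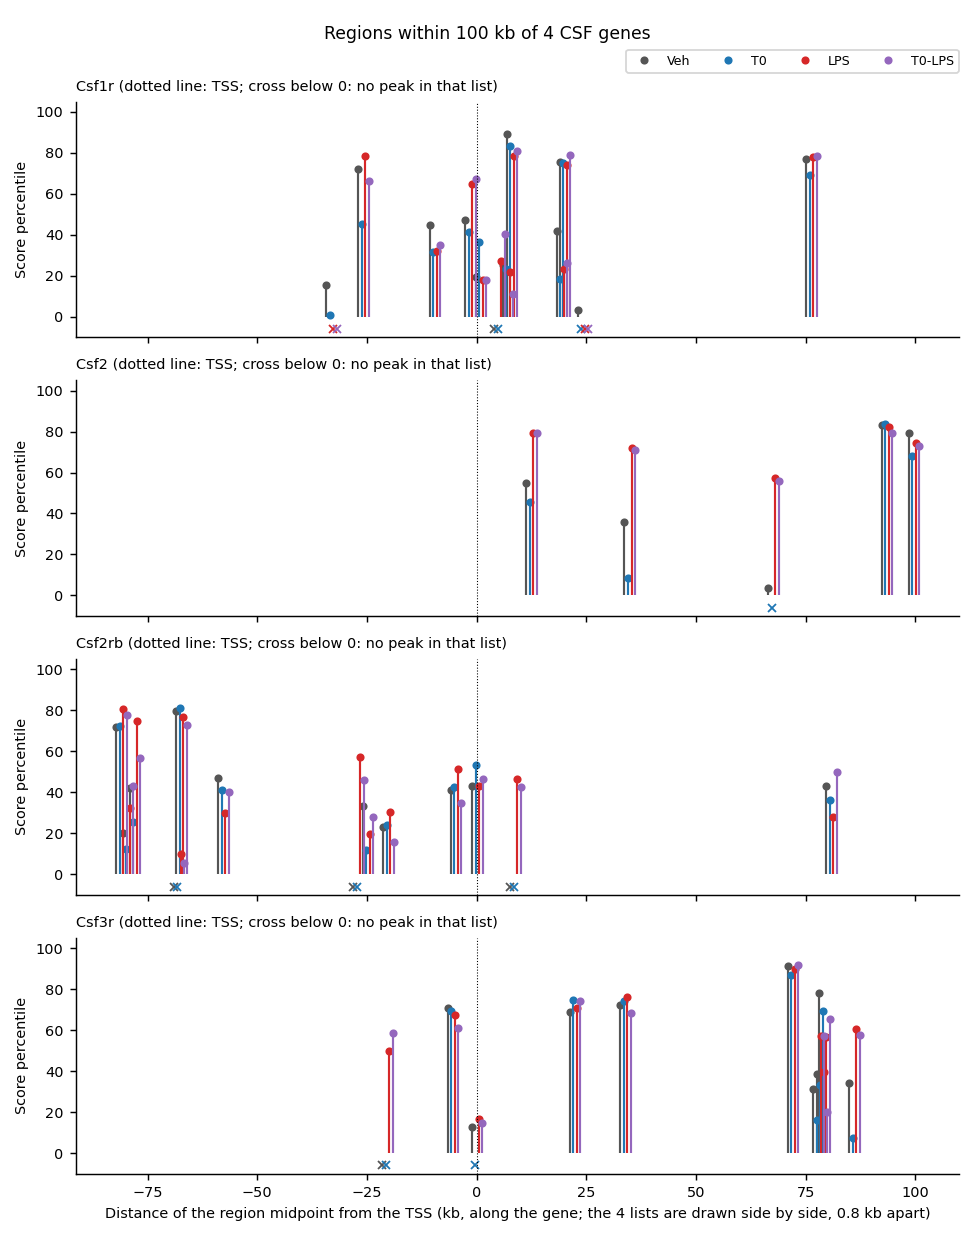
Score percentile (vertical axis, 0 to 100) of each region within 100 kb of Csf1r, Csf2, Csf2rb and Csf3r against its distance from the TSS in kb, with 1 stem per list and a cross below 0 where the list held no peak. Around Csf2 the 3 nearest regions stood higher in LPS and T0-LPS than in Veh and T0, and no region lay upstream within 100 kb.

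T0 was compared with Veh to describe the LXR agonist alone, and most CSF regions ranked lower, as did most of all regions. Of 57 shared member regions, 17 (29.8%) ranked higher in T0, against 22.9% of all shared regions. Of 63 member regions with a Veh peak, 6 (9.52%, 4.44 to 19.3%) were missing from T0, called T0-closed, against 18.1% of all regions. The 6 were the TSS regions of Csf2ra and Csf3r and 1 region each near Csf1r, Csf1, Csf2 and Csf3, all weak, at percentiles up to 15.8 in Veh. Weak regions are lost most often: in the lowest Veh decile 80.6% of all regions were T0-closed, with 3 of 3 members, and in the next 58.1%, with 3 of 10 members. The T0-opened regions numbered 0 of 57 (upper limit 6.31%), against 0.729%. Among 57 shared member regions, 18 (31.6%) fell by more than 10 points against 34.1% of all shared regions, and 2 (3.51%) rose against 2.01%. The median difference was -5.2 points for the members and -5.6 for all, which are close. The sign depended on the ranking, as the members' median was 1.9 when regions were ranked among those in all 4 lists.

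The largest falls with T0, as differences in percentile points, were -26.9 at the Csf2 region at 34900 bp, -26.9 at a Csf1r region and -26.8 at the Stk40 intron downstream of Csf3r. Ranked among regions in all 4 lists, the differences were -11.8, -23.9 and -11.2, and a region 82238 bp downstream of Csf3, at -17.9, fell by more than the Csf2 and Stk40 regions. The Csf1r region, 25834 bp upstream in an intron of Pdgfrb, a related receptor tyrosine kinase gene, scored 601 with vehicle, 274 with T0, 599 with LPS and 415 with both. Its percentiles were 72.1, 45.1, 78.5 and 66.1, lower with T0 both without and with LPS. The rises were fewer. The region 998 bp from the Csf1r gene record start scored 169 with vehicle, 224 with T0, 145 with LPS and 134 with both, and its difference of 16.9 points between T0 and Veh was larger than that of 99.8% of shared regions. The Csf2rb TSS region scored 317 with vehicle, 328 with T0, 274 with LPS and 271 with both, with a percentile of 53.5 in T0 against 43.1 in Veh. A Csf2ra intron region 1028 bp from its TSS rose by 6.9 points. Among regions in all 4 lists these 3 rises were larger, at 25.6, 22.8 and 15.7 points, while the width percentile of the Csf2rb TSS peak fell by 7.4 points.

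T0-LPS was compared with LPS for the agonist in stimulated cells, and the Csf2 regions held nearly the same rank in both lists. The 3 nearest Csf2 regions differed by 0.0, -1.0 and -1.2 points, against a median of -1.8 over all shared regions. Of 64 member regions with an LPS peak, 3 (4.69%, 1.61 to 12.9%) were missing from T0-LPS, against 9.97%, and 3 of 64 with a T0-LPS peak were missing from LPS, against 3.37%. These 6 regions lay near Csf3, Il34 and Csf2ra and were weak, at percentiles up to 17.2. Among 61 shared member regions, 6 (9.84%) rose by more than 10 points against 7.36%, and 11 of 61 fell against 19.3%, with a median difference of 0.0 points.

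Among the falls, a Csf3r region 78753 bp downstream went from 253 to 142 and fell by 19.8 points. The Ncf4 intron region 77869 bp upstream of Csf2rb fell by 18.4 points and a region 4754 bp upstream of Csf2rb fell by 16.6, from 330 to 207. The Csf2rb2 intron region fell by 11.1 points and its Csf2rb counterpart fell by 4.0. Rises were found at an intron of the sulfurtransferase gene Mpst 80837 bp downstream of Csf2rb, from 190 to 290 (22.0 points), at a region 87770 bp downstream of Csf3, from 348 to 489 (19.7 points), and 17647 bp upstream of Csf1, from 171 to 210 (12.1 points). At the Csf1r transcript start sites the region stood 13.3 points higher in T0-LPS. Regions that fell and rose thus lay near the same gene, Csf2rb.

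T0-LPS was compared with T0 for the response to LPS after the agonist, and some regions near Csf2 and Csf3r rose by more than between Veh and LPS. Among them were the Csf2 regions at 12559 and 34900 bp and the Csf3r regions at 77975 and 86159 bp. T0 ranked these below Veh, though ranked among regions in all 4 lists the differences were -1.0, -11.8, -2.2 and -11.2 points. Of 8 shared Csf3r regions, 3 were higher in T0-LPS than in T0 and 5 lower. Of 64 member regions with a T0-LPS peak, 10 (15.6%, 8.71 to 26.4%) were missing from T0, against 11.7%, and 3 of 57 with a T0 peak (5.26%) were missing from T0-LPS, against 7.70%. The 10 were the 6 regions present in LPS and T0-LPS only, the 4933405E24Rik intron downstream of Csf2, the TSS regions of Csf2ra and Csf3r and a weak Csf3 region, and 7 of them had no room for a removed peak in T0. Among 54 shared member regions, 17 (31.5%) rose by more than 10 points against 20.5%, and 3 (5.56%) fell against 16.8%. The largest rises were 62.4 points at the Csf2 region at 34900 bp, 50.2 at the Stk40 intron and 40.8 at 77975 bp from Csf3r. The 3 falls were differences of -18.8 points at 998 bp from Csf1r, -13.4 at 78753 bp from Csf3r and -12.1 at 7191 bp from Csf1r. Each list entered 2 of the 4 comparisons, so that they share lists and are not independent of each other.

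**Figure D3:**
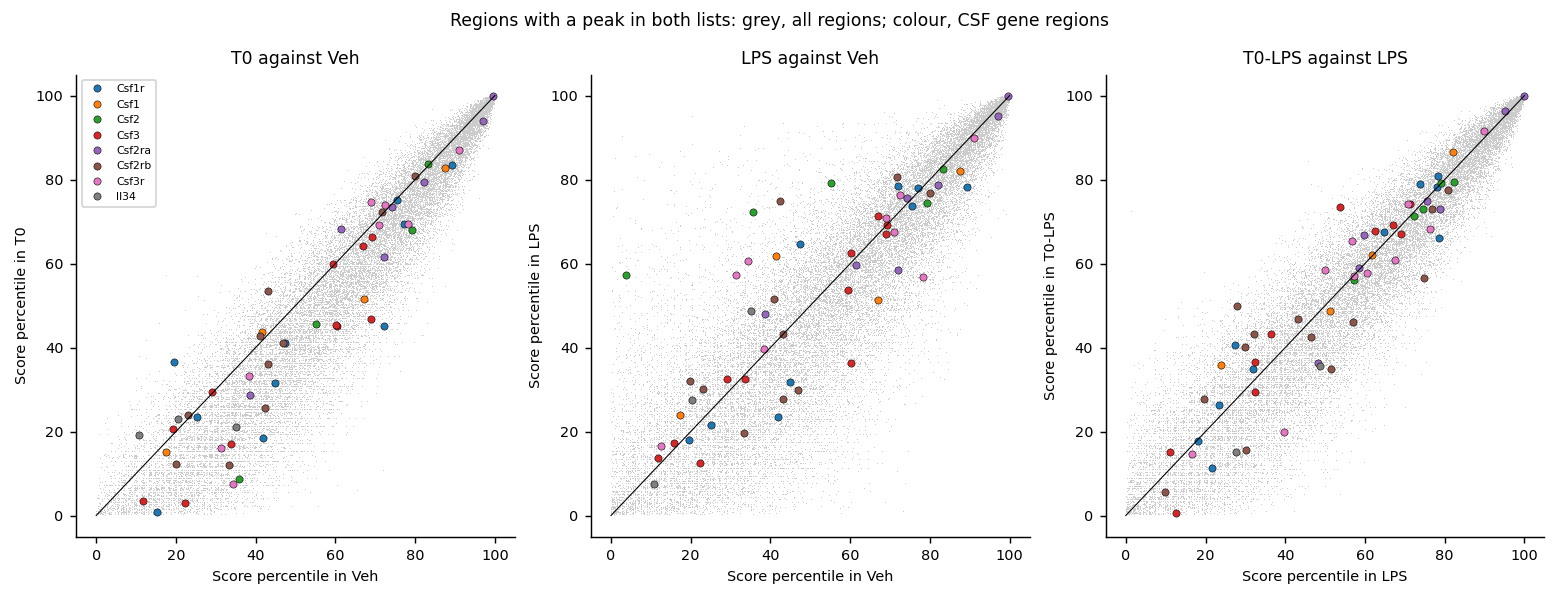
Score percentile of each region in 1 list against another, for T0 against Veh, LPS against Veh and T0-LPS against LPS, with all shared regions in grey, member regions coloured by gene and the line of equal percentile. With LPS the Csf2 regions at 67666, 34900 and 12559 bp lay above the line by 53.5, 36.5 and 24.0 points, and most coloured points lay within the grey cloud.

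**Figure D4:**
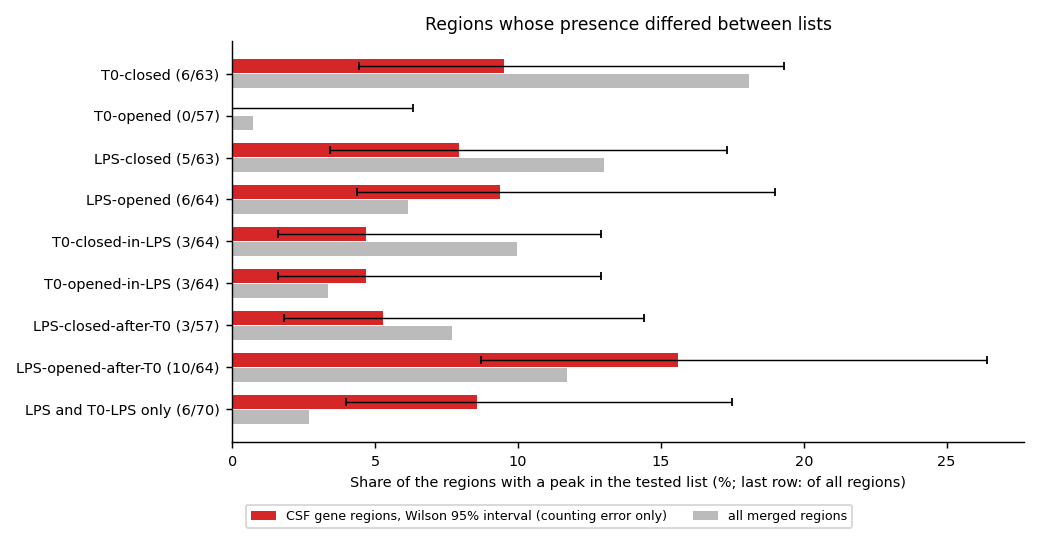
Share in percent of member regions (red, with Wilson 95% intervals) and of all regions (grey) whose presence differed between lists; the numbers in brackets are members called of members tested. The member interval for regions in LPS and T0-LPS only, 3.99 to 17.5%, lay above the 2.69% of all regions. With the paralogous introns counted once it was 3.13 to 15.9%. This pattern was not among the planned comparisons, and 3 of its 6 regions lay near Csf2rb. The other 8 intervals held the value of all regions.

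Strong regions in every list were found near Csf2ra. The region 28725 bp downstream scored 1527 with vehicle, 1595 with T0, 1629 with LPS and 1542 with both, at percentile 99.6 or above in each list. A second, 87506 bp downstream, scored between 894 and 1213. Csf2ra encodes the ligand-specific chain. Relative to Veh, the percentile of the first differed by 0.3 points with T0 and 0.4 with LPS, and that of the second by -3.1 and -1.9.

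The beta chain genes gave a view of paralogous sequence. All 6 regions in and beside Csf2rb and Csf2rb2 that were compared had a match in or beside the other copy on the opposite strand. The weakest match, 73.4% over 335 bp with 51 gap positions, was that of the region 4754 bp upstream of Csf2rb. No list held a peak at its matching stretch. The Csf2rb2 intron region matched the Csf2rb intron region at 92.3% identity over 325 bp, with a longest identical stretch of 96 bp. The TSS regions of Csf2rb and Csf2rb2 also matched, at 93.0%, with peaks at both copies in all 4 lists. Sharing sequence did not always go with sharing a peak: the Csf2rb2 intron region at 78300840-78301113, present in all 4 lists, matched 78330735-78331007 in Csf2rb at 90.8%, where no list held a peak or had room for one. Reads from identical stretches could be placed at either copy, and how such reads were treated is not given in the sources used here, so the paired peaks are uncertain as separate measurements.

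Most sequence features of the 70 regions were near those of all regions. Median GC content was 54.2% against 51.5%, and median width 429 bp against 405 bp. In the central 200 bp, the AP-1 motif was found in 16 member regions (22.9%) against 16.6% of all, PU.1 in 28 (40.0%) against 35.1% and NF-kB in 7 (10.0%) against 4.31%. Over all 1009 regions with sequence that were present in LPS and T0-LPS only, 25.3% held an NF-kB match, and 2 of the 6 members did, these being the paralogous introns printed above. GAS was found in 7 (10.0%) against 5.51%, the nuclear receptor half-site in 7 (10.0%) against 11.9%, C/EBP in 6 (8.57%) against 10.7%, DR4 with up to 2 mismatches, the form LXR is known to prefer, in 2 (2.86%) against 1.94%, and CTCF in 1 (1.43%) against 0.851%. In the central 200 bp, the Wilson interval of the members held the value of all regions for every motif other than NF-kB. The NF-kB interval began at 4.93%, and with the paralogous introns counted once (6 of 69, 8.70%, 4.05 to 17.7%) NF-kB was no exception. In the central 400 bp, NF-kB was found in 7 member regions and 7.27% of all. AP-1 was found there in 23 member regions (32.9%, 23.0 to 44.5%) against 22.5%, so its interval lay above the value of all regions.

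Other genes of the pathway were read from 3 lists. The 5 receptor partners and paralogs (Csf2rb2, Il3, Il5, Il3ra and Il5ra) had 30 regions, of which 4 of 27 (14.8%) were LPS-opened and 7 of 26 (26.9%) T0-closed, against 6.14% and 18.1% of all regions. Member regions were not removed from these lists. As Csf2rb2 lies beside Csf2rb, the 3 LPS-opened Csf2rb regions were among these 4, so the share is not independent of the members. The 22 signalling genes had 260 regions, with 13 of 226 (5.75%) LPS-opened and 57 of 244 (23.4%) T0-closed, and the 15 transcription factors 178, with 18 of 155 (11.6%) and 19 of 156 (12.2%). Only a few of these were well ranked. Near Socs3, a feedback inhibitor of cytokine receptors, a region 8006 bp upstream was absent from Veh and T0 with no room and scored 445 in LPS and 341 in T0-LPS. Il3, a haematopoietic growth factor gene, shared the 4933405E24Rik intron region with Csf2, at 85276 bp from its own TSS. The immediate early gene Egr1 had a region 3440 bp upstream with scores of 591 in Veh and 407 in T0 that was missing from both lists with LPS, where 2 missing numbers left room, and a region 72635 bp from Egr2 was LPS-opened with room.

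Among the 8 members, Csf2 had the most unusual profile over the lists. When the percentiles of its 5 regions were summed in each list and divided by their total, Veh held 21.7%, T0 17.4%, LPS 30.8% and T0-LPS 30.2%, where the medians over genes were 22.9% for T0, 25.6% for LPS and 24.4% for T0-LPS. This profile departed from the median by more than that of 96.7% of genes with at least 3 regions. Those genes were not matched to Csf2 in their number of regions. The genes with the most similar profiles over the 4 lists, by Euclidean distance of the shares as fractions, were Tlr1 at 0.00591, Sh3tc2 at 0.00669 and Kif3c at 0.00695. Il34 came next among the members, with 31.7% in LPS and 19.2% in T0-LPS over 3 regions, 1 of which had no T0-LPS peak. It was nearest to Mbp, Gata3 and 4930412O13Rik. Csf1r, with 26.4, 22.0, 25.6 and 26.0%, departed less than most genes.

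The cell label was read from markers with a peak within 1 kb of the TSS. All 8 macrophage markers had one in each list, where 49.8% of protein-coding genes had a region in any list, as did 0 of 4 T cell, 1 of 4 B cell and 1 of 5 neutrophil markers, while 1 of 4 fibroblast markers had one in Veh only and 1 of 3 epithelial markers in LPS only. The lists had been limited to macrophage enhancers, so a low count for another cell type was partly set by that filter and says little about which other cells were present.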

How the data were processed

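ATAC-seq was done on 16 libraries of mouse bone marrow-derived macrophages in 4 groups of 4, grouped by the labels. The authors trimmed adaptors (cutadapt), aligned reads (Bowtie2), removed duplicates (SAMtools), called peaks with MACS2 on the 4 libraries of each group together and kept peaks at macrophage enhancers defined by H3K27ac or H3K4me2. The build mm10 and bedtools are named in the submitters' processing notes. The deposited score of each peak is the peak caller's and has no stated scale; its values were used only as ranks within a list and side by side.

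Overlapping peaks (at least 1 bp) were merged into regions, with the highest peak score of a region taken per list. The score percentile was the rank among all peaks of that list. Genes, TSSs and untranslated regions came from the GENCODE vM21 basic annotation of GRCm38, and sequences from the GRCm38 genome. The lists held 35551 (Veh), 29839 (T0), 33181 (LPS) and 31085 (T0-LPS) peaks, and the number of reads behind them is unknown. The members and gene lists were chosen with earlier results of these data known. Regions given in full were the one nearest each TSS, those missing from a list at a percentile of at least 25 in another, and the 3 largest rises and falls per comparison among regions in all 4 lists; pathway genes were named where a region changed presence at a percentile of at least 50, and 1 such gene is not reported here. Weak LPS-opened regions, other Csf2 regions and the strong Csf2ra regions were named after their values were seen. The share of regions in LPS and T0-LPS only was not among the planned comparisons. Paralogs were aligned with blastn 2.17.0; other steps used Python 3.11.15, pandas 2.3.3 and scipy 1.17.1, and the region merging was tested on simulated data. Alternatives were a window of 50 kb, scores of at least 100, lists shortened to the 29839 best peaks, reciprocal overlap of 50%, merging across gaps of 200 bp, distances from any basic transcript, ranks among regions in all 4 lists, a motif window of 400 bp, 1 DR4 mismatch and, added after the data were seen, only absences with no room for a removed peak and the paralogous introns counted once.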

Additional observations from a re-analysis of the deposited data

Results flagged for a closer look

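The region at the Csf2ra TSS (chr19:61228278-61228551), over an untranslated region of Csf2ra, was picked out because T0 had opposite directions in unstimulated and stimulated cells. It scored 132 in Veh and had no peak in T0, while it had no peak in LPS and scored 89 in T0-LPS. Neither T0 nor LPS had room for a removed peak there. Both peaks were weak, at percentiles 11.8 and 5.36, and with scores of at least 100 only the Veh peak was left. With lists shortened to equal length, only the T0-LPS peak was left. Of all 37648 regions, 420 (1.12%) showed such opposite presence with T0. The difference between the effects of T0 was not tested, since there was 1 pooled list per group.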

How the results depend on the processing

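No paired analysis was possible because peaks had been called on the 4 libraries of a group together, and leaving out a replicate was not possible for the same reason. With a window of 50 kb there were 41 regions and 3 T0-closed. With lists shortened to equal length there were 0 T0-closed, 3 T0-opened and 1 LPS-closed regions. With scores of at least 100, 5 were T0-closed-in-LPS (missing from T0-LPS), 1 T0-opened-in-LPS (missing from LPS) and 1 lost with LPS after T0. With a reciprocal overlap of 50% the counts were 10 T0-closed, 4 T0-opened, 9 LPS-closed, 10 LPS-opened, 5 T0-closed-in-LPS, 10 lost and 16 gained with LPS after T0. Counting only absences with no room, chosen after seeing the data, left 2 LPS-closed regions. No share over all regions is given for these settings. The counts therefore do not show whether the members differ from all regions under them. The median difference between T0 and Veh turned from -5.2 to 1.9 points when regions were ranked among those in all 4 lists, which leaves out the weak peaks that T0 lost. DR4 was found in 0 regions with 1 mismatch. The other 53 recomputed values stayed within 1.5 times for counts, 5 points for medians and the 95% Wilson interval for motif shares. In the central 400 bp, AP-1 moved from 22.9 to 32.9%, C/EBP from 8.57 to 15.7% and CTCF from 1.43 to 2.86%. Of the 6 regions present in LPS and T0-LPS only, 5 kept that pattern both with scores of at least 100 and at equal length, all but the one 67833 bp upstream of Csf2rb. The cause of the other shifts was not tested. Depth per library is unknown, so a missing peak means that none passed the authors' threshold and filter, and a small difference of rank could not be told from the spread between libraries.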

Other observations

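Some CSF regions present in all 4 lists held a much narrower peak in T0 than in Veh. They were picked by their widths, and no share over all regions was taken. The Stk40 intron region 86159 bp downstream of Csf3r spanned 1167 bp with vehicle, 394 bp with T0, 1152 bp with LPS and 876 bp with both. The Mpst intron region 80837 bp downstream of Csf2rb spanned 522 bp with vehicle, 231 bp with T0, 503 bp with LPS and 476 bp with both. The region 76470 bp downstream of Csf2ra spanned 878 bp with vehicle over 2 peaks, 340 bp with T0, 469 bp with LPS and 836 bp with both. An Il34 region 41078 bp upstream spanned 629 bp with vehicle, 372 with T0, 252 with LPS and 194 with both. Narrower peaks were thus not particular to T0. The width percentile within the list fell by 41.6 points at the first and fell by 57.1 points at the second between Veh and T0. The score percentile also differed between T0 and Veh, by -26.8 points at the Stk40 region, -7.0 at the Mpst region and -9.8 at the Csf2ra region. Widths grow with the depth of the pooled libraries, which is unknown, and its part in these values was not tested. At the Csf3r TSS the peak was 454 bp wide with LPS and 368 bp with both treatments against 215 bp with vehicle, while its scores were 140, 125 and 135 in that order.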
